A study of Mus musculus with 24 samples.

Results

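The cerebral cortex of APP/PS1 mice at 9 months was compared with that of APP/PS1 mice at 3 months, across all miRNAs counted by small RNA sequencing. The members are the 6 libraries that the labels give to these 2 groups, of 24 libraries in the series. APP/PS1 mice are a transgenic model of Alzheimer disease that carries mutant forms of the human amyloid precursor protein and of presenilin 1 and lays down amyloid plaques in the cortex with age; plaques were not measured in the files used here. The groups used were APP/PS1 at 9 months, APP/PS1 at 3 months, wild-type (WT) at 9 months and WT at 3 months, each of 3 mice labelled C57BL/6, with no treatment named in the labels. Per the series design each age group held 2 female mice and 1 male mouse, and the sex behind each library is not given. The labels name neither the promoter that drives the transgenes nor the line, and the tissue label reads brain where the title names the cerebral cortex. Libraries at 1 and 6 months entered the fit of the spread, and the 6-month values are quoted where they bear on a result.

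A miRNA is a short RNA that guides Argonaute proteins to messenger RNAs and lowers their translation and stability. It is cut from a hairpin precursor that can give a mature miRNA from its 5′ arm (5p) and from its 3′ arm (3p). Bases 2 to 8 of the mature miRNA, the seed, select most targets, so miRNAs with 1 seed form a family. Several precursors are often cut from 1 primary transcript and form a genomic cluster. Cortical tissue holds neurons, glia, vessels and the blood in them, and many miRNAs are largely made by 1 of these.

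Mature sequences were taken from RefSeq (GRCm38.p6), which held 358 of the 433 tested names and 28 of the 31 that changed; miR-3470a, miR-1957a and a predicted miRNA whose counts follow miR-690 are named without sequence. The seed is in capitals. The first set are the immune miRNAs that were higher and the erythroid miRNAs that were lower at 9 months, and they share no seed.
miR-142a-5p: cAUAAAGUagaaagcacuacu
miR-142a-3p: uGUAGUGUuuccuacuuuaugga
miR-155-5p: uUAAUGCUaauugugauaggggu
miR-223-3p: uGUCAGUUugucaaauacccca
miR-144-5p: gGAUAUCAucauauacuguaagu
miR-144-3p: uACAGUAUagaugauguacu
miR-451a: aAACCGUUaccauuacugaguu

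The second set shows families of which 1 member changed, each given with its relatives of the same seed.
miR-212-3p: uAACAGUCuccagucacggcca
miR-132-3p: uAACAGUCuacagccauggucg
miR-29b-3p: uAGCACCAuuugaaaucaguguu
miR-29a-3p: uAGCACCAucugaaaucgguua
miR-29c-3p: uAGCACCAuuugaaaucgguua
miR-152-3p: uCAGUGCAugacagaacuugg
miR-148a-3p: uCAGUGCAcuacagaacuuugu
miR-148b-3p: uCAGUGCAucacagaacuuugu
miR-211-5p: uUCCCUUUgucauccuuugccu
miR-204-5p: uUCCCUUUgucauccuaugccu
miR-215-5p: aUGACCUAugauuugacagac
miR-192-5p: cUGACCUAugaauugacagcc

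The third set shows names whose reads cannot be kept apart or that differ at their ends. miR-199a-3p and miR-199b-3p have 1 sequence, and miR-101c lies within miR-101a-3p, so that its seed starts 1 base later.
miR-199a-3p: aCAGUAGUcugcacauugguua
miR-199b-3p: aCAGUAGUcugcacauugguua
miR-101a-3p: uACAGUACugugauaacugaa
miR-101c: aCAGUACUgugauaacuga
miR-101b-3p: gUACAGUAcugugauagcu

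The last set holds the other arm of the miR-212 hairpin, the 4 miRNAs of the imprinted Dlk1-Dio3 region on chromosome 12 that were lower at 9 months, and miR-690, the name with the smallest p.
miR-212-5p: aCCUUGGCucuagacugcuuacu
miR-337-5p: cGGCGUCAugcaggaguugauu
miR-409-5p: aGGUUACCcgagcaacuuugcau
miR-412-5p: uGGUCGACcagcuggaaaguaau
miR-673-5p: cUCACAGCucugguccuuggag
miR-690: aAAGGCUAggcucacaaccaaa

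The deposited counts summed to between 3888926 and 4382596 per library in the 9-month APP/PS1 group and between 5169910 and 6575838 in the 3-month APP/PS1 group, so each 9-month library was shallower than each 3-month library. WT totals were 4036855 to 6604335 at 9 months and 3644883 to 5721158 at 3 months. Values are CPM, counts scaled to a common library size, after TMM scaling, which sets libraries level on the bulk of their miRNAs. The 9-month libraries lay further from their group mean than the 3-month libraries, with root mean square log2 deviations of 0.295 to 0.333 against 0.203 to 0.223 over the tested names. miR-124-3p, the leading miRNA of neurons, was the most abundant name, at 191407, 185253 and 175356 CPM at 9 months and 203162, 185382 and 222886 CPM at 3 months, and the 13 names of the epithelial miR-200 and miR-183 clusters summed to between 0.25 and 3.23 CPM at 9 months and between 0.19 and 0.75 CPM at 3 months. miR-21a-5p, an abundant miRNA of many tissues, and miR-219a-5p, made by oligodendrocytes, were too low to be tested in these counts.

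Of the 433 names with enough counts to test, 31 changed between 9 and 3 months in APP/PS1 cortex at an adjusted p under 0.05 (7.16%), by edgeR's quasi-likelihood test with Benjamini-Hochberg adjustment. At 9 months 22 were higher (5.08%) and 9 lower (2.08%), and 85 names (19.6%) had an unadjusted p under 0.05. The median log2 fold change over all 433 names was 0.04. The libraries of the ages did not overlap for 30 of the 31, with miR-223-3p as the exception, where 117 of all 433 names (27%) did not overlap. Of the 31, 12 averaged under 20 CPM over the 6 libraries, and 188 of the 433 did. The 31 names stand for fewer measurements, since miR-199a-3p and miR-199b-3p had identical counts, miR-101c had the counts of miR-101a-3p in 21 of 24 libraries, and the predicted miRNA held between 0.65 and 0.80 times the count of miR-690 in each library. Leaving out 1 library at a time gave 16 to 26 names, with 16 without the 3-month replicate 2, 20 without the 3-month replicate 3 and 20 without the 9-month replicate 2, and 13 of the 31 passed in all 6 such fits. Each of these fits has fewer libraries.

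**Figure D1:**
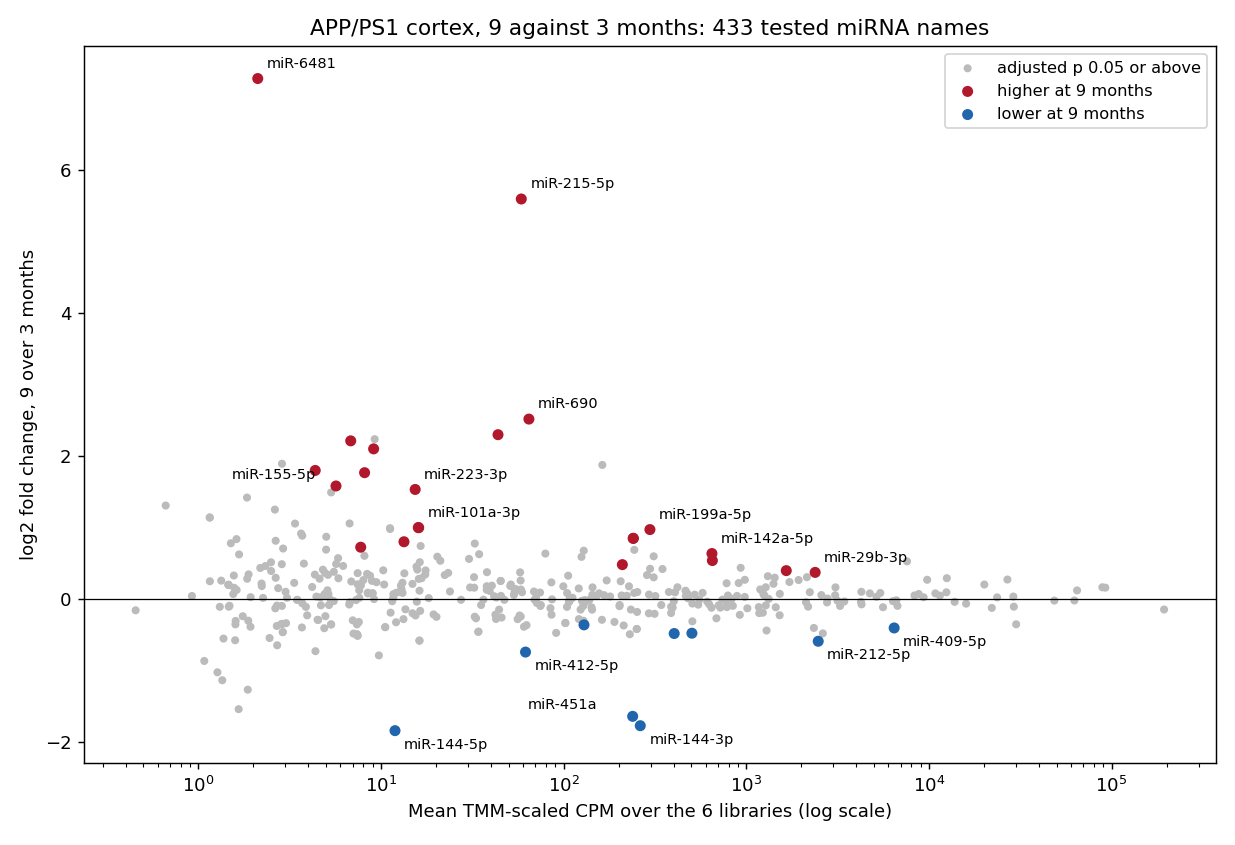
Log2 fold change in APP/PS1 cortex, 9 over 3 months (vertical), against the mean TMM-scaled CPM of the 6 libraries (horizontal, log scale) for 433 names. Red points are the 22 names that were higher and blue points the 9 that were lower at an adjusted p under 0.05; the larger changes are among names of low and middle level, and the blue points of largest size are miR-144-5p, miR-144-3p and miR-451a.

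Of 11 tested members of the immune and microglial list, 4 were higher at 9 months and 0 lower, where 22 of all 433 names (5.08%) were higher and 9 (2.08%) lower. miR-142a is made in blood-derived cells and microglia, and both arms of its hairpin rose. miR-142a-5p had 743, 954 and 673 CPM at 9 months, against 553, 486 and 486 CPM at 3 months (log2 fold change 0.64, SE 0.13, adjusted p = 0.00376). miR-142a-3p, the scarcer arm in these counts, had 16.8, 20.6 and 13.7 CPM at 9 months, against 11.3, 9.73 and 8.26 CPM at 3 months (log2 fold change 0.80, SE 0.22, adjusted p = 0.0220). For both arms every 9-month library lay above every 3-month library. The hairpin lies at chr11:87756864-87756927 of GRCm38, plus strand, within the noncoding gene Mir142hg.

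miR-155-5p, which macrophages and microglia make on inflammatory stimulation, had 9.69, 10.9 and 4.97 CPM at 9 months, against 3.94, 2.54 and 2.01 CPM at 3 months (log2 fold change 1.58, SE 0.37, adjusted p = 0.00995). Its groups did not overlap. It is cut from the noncoding gene Mir155hg at chr16:84714140-84714204, plus strand. miR-223-3p, a miRNA of neutrophils and other myeloid cells, had 9.95, 47.8 and 10.9 CPM at 9 months, against 10.5, 7.78 and 5.44 CPM at 3 months (log2 fold change 1.53, SE 0.43, adjusted p = 0.0294). It overlapped between the ages and passed in 3 of 6 fits with 1 library left out. The 9-month replicate 2 stood highest, and without that library the log2 fold change was 0.39 with an adjusted p of 0.575. In RNA from whole tissue, more cells of a type and more of the RNA per cell cannot be told apart.

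miR-142a-5p passed in all 6 fits with 1 library left out. miR-155-5p passed in 3 of 6, with a highest adjusted p of 0.0674 without the 9-month replicate 2, and miR-142a-3p in 2 of 6, with a highest adjusted p of 0.131 without the 3-month replicate 3. In a fit of the 6 libraries alone miR-155-5p had an adjusted p of 0.0517, and miR-142a-3p and miR-223-3p did not pass there either. Of the 7 other tested members, miR-146a-5p, a miRNA induced through NF-kB, had 19.6, 16.6 and 21.4 CPM at 9 months, against 15.6, 12.9 and 11.9 CPM at 3 months (log2 fold change 0.51, SE 0.17, adjusted p = 0.0874), without overlap of the ages. miR-150-5p, made by mature lymphocytes, had 500.3, 405 and 452 CPM at 9 months, against 544, 582 and 559.6 CPM at 3 months (log2 fold change -0.31, SE 0.12, adjusted p = 0.159), lower without overlap. miR-150-3p, the other arm of its hairpin, had 1.31, 0.744 and 0.497 CPM at 9 months, against 1.88, 3.14 and 2.42 CPM at 3 months, lower without overlap, and did not pass (log2 fold change -1.54, SE 0.55, adjusted p = 0.117). Such absence of overlap was seen for 117 of all 433 names (27%). miR-146b-3p and miR-342-5p had log2 fold changes of -0.03 and 0.09 with overlapping libraries. miR-146b-5p and miR-342-3p, which hold most counts of the list, had log2 fold changes of 0.03 and 0.10 with overlapping libraries. The summed level of the list was 10245, 11125 and 11537 CPM at 9 months, against 10728, 10498 and 9849 CPM at 3 months, and its median log2 fold change was 0.10.

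**Figure D2:**
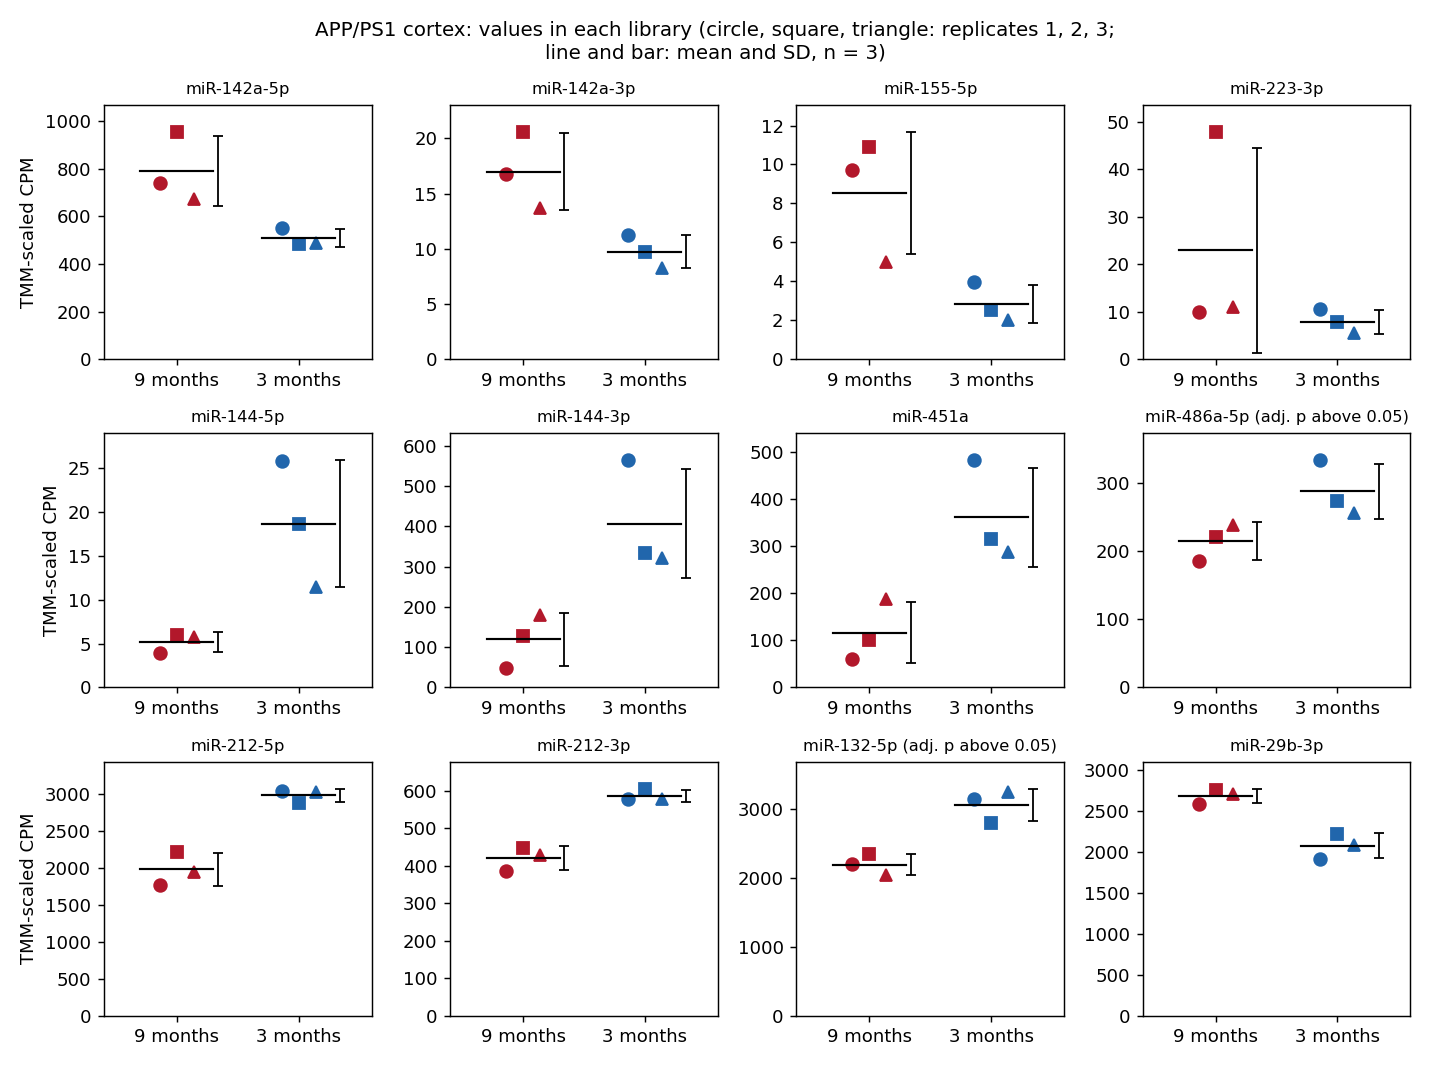
TMM-scaled CPM of 12 miRNAs in each APP/PS1 library, 9 months left and 3 months right in each panel, with circles, squares and triangles for replicates 1, 2 and 3 and the mean and SD (n = 3) beside them. The immune miRNAs of the top row sit higher at 9 months, with 1 library at 47.8 CPM for miR-223-3p, and the 4 erythrocyte names shown in the middle row sit lower. In the bottom row the arms of miR-212 and miR-132-5p sit lower and miR-29b-3p higher.

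Of 7 tested names of the erythrocyte list, 3 were lower at 9 months, where 9 of all 433 names (2.08%) were. These 3 are the members of the miR-144 and miR-451a cluster. This cluster is transcribed in erythroid precursors, and miR-451a is cut by Argonaute 2 in place of Dicer. miR-451a had 59.7, 101 and 187 CPM at 9 months, against 482, 316 and 288 CPM at 3 months (log2 fold change -1.64, SE 0.34, adjusted p = 0.00413). miR-144-3p had 49.0, 128 and 180.2 CPM at 9 months, against 564, 334 and 323 CPM at 3 months (log2 fold change -1.77, SE 0.37, adjusted p = 0.00413). The other arm, miR-144-5p, had 3.93, 5.95 and 5.72 CPM at 9 months, against 25.9, 18.7 and 11.5 CPM at 3 months (log2 fold change -1.84, SE 0.35, adjusted p = 0.00322). The lowest 3-month library lay above the highest 9-month library for all 3, and each passed in all 6 fits with 1 library left out. The 6-month APP/PS1 mean lay above both ages for miR-451a and miR-144-5p and between them for miR-144-3p. In a fit of the 6 libraries alone miR-144-3p and miR-451a missed the threshold (adjusted p = 0.0584 and 0.0541). Both hairpins lie within chr11:78073005-78073241 on the plus strand, outside annotated genes other than their own.

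The other erythrocyte markers are the arms of miR-486, which muscle also makes, and the names miR-486a and miR-486b have identical counts. miR-486a-5p had 185, 221 and 239 CPM at 9 months, against 334, 273 and 257 CPM at 3 months, which did not overlap, and did not pass the test (log2 fold change -0.42, SE 0.18, adjusted p = 0.202). miR-486a-3p lay in the opposite direction, with 1.05, 2.48 and 1.24 CPM at 9 months, against 0.563, 0.599 and 1.01 CPM at 3 months, a log2 fold change of 1.138, no overlap and an adjusted p of 0.185. The list thus had 3 names lower, 0 higher and 4 that did not pass, of 7 (5 distinct), with 5 below 0, 2 above 0 and a median log2 fold change of -0.42. Its summed level was 299, 459 and 614 CPM at 9 months, against 1406, 943 and 880 CPM at 3 months, in APP/PS1 cortex. In WT cortex it was 803 to 1020 CPM at 9 months and 947 to 1162 CPM at 3 months, so the 3 lowest libraries of the 12 were the 9-month APP/PS1 ones. The sum holds the 3 names that passed and so restates their fall. By edgeR the APP/PS1 change minus the WT change did not pass for miR-144-5p, miR-144-3p or miR-451a (adjusted p = 0.165, 0.201 and 0.201). None of the list's defining members was at 0. Whether the amount of blood in the tissue moved with age was not tested, and the labels describe no perfusion.

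Neuronal activity induces the transcript of miR-212 and miR-132 through the factor CREB, and the arms of miR-212 were lower at 9 months. miR-212-5p had 1769, 2218 and 1946 CPM at 9 months, against 3039, 2879 and 3019.8 CPM at 3 months (log2 fold change -0.59, SE 0.16, adjusted p = 0.0206). miR-212-3p had 386, 449 and 429 CPM at 9 months, against 578, 606 and 578 CPM at 3 months (log2 fold change -0.48, SE 0.13, adjusted p = 0.0216). The arms of miR-132, cut from the same transcript, also lay lower in every 9-month library without passing: miR-132-5p had 2196, 2347 and 2038 CPM at 9 months, against 3144, 2800.1 and 3240.0 CPM at 3 months (log2 fold change -0.48, SE 0.17, adjusted p = 0.115). miR-132-3p, the family member most studied in Alzheimer disease, had 1884, 2292 and 1881 CPM at 9 months, against 2888, 2464 and 2668 CPM at 3 months (log2 fold change -0.40, SE 0.19, adjusted p = 0.233). The hairpins lie at chr11:75173388-75173747, plus strand, within the noncoding transcript 1700016P03Rik.

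Of 6 tested members of the activity-regulated list, 2 were lower and 0 higher, with a median log2 fold change of -0.44. These 2 are the arms of the miR-212 hairpin, and 9 of all 433 names (2.08%) were lower. miR-134-5p and miR-485-5p, from the Dlk1-Dio3 region, had log2 fold changes of 0.33 and 0.05. miR-212-5p passed in 1 of 6 fits with 1 library left out (highest adjusted p = 0.0986, without the 9-month replicate 1) and miR-212-3p in 4 of 6 (0.0780, without the 3-month replicate 2). WT mice gave log2 fold changes of -0.33, -0.44, -0.46 and -0.39 for miR-212-5p, miR-212-3p, miR-132-5p and miR-132-3p, with the sign seen in APP/PS1 mice.

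Of 91 tested names from the imprinted Dlk1-Dio3 region, 4 were lower and 0 higher, and the median log2 fold change of that list was -0.06. Over all 433 names 31 passed (7.16%), of which 9 were lower (2.08%). Names that passed in either direction were thus not more frequent in this region. This region of chromosome 12 expresses its miRNAs from the maternal allele, mainly in brain. miR-337-5p had 345, 321 and 344 CPM at 9 months, against 433, 477 and 501 CPM at 3 months (log2 fold change -0.48, SE 0.09, adjusted p = 0.00376). miR-409-5p had 5678, 5611 and 5375 CPM at 9 months, against 7017, 7282 and 7767 CPM at 3 months (log2 fold change -0.41, SE 0.10, adjusted p = 0.0109). miR-412-5p had 46.9, 43.4 and 48.7 CPM at 9 months, against 76.2, 79.3 and 77.0 CPM at 3 months (log2 fold change -0.74, SE 0.19, adjusted p = 0.0182), and each of the 3 was lower in every 9-month library. The 6-month APP/PS1 mean of each of these 3 lay below both ages. miR-673-5p, at 118, 113 and 109 CPM against 147, 145 and 144 CPM, was the name nearest the threshold (adjusted p = 0.0499) and passed in 0 of 6 fits with 1 library left out (highest 0.132, without the 3-month replicate 1). miR-412-5p passed in 1 of 6 (highest adjusted p = 0.0859, without the 9-month replicate 2), and miR-337-5p and miR-409-5p passed in all 6.

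The opposite arms of these 4 hairpins did not pass. miR-337-3p, miR-409-3p and miR-673-3p had log2 fold changes of -0.22, -0.27 and -0.26, while miR-412-3p had 0.41. Mir337 (chr12:109585789-109585885) and Mir673 (chr12:109571990-109572080) lie in the proximal group of hairpins, where 2 of 22 tested names with a RefSeq sequence were lower. Mir409 (chr12:109743158-109743236) and Mir412 (chr12:109743289-109743368) lie next to each other within the noncoding gene Mirg, in the distal group, where 2 of 61 were. Over all 433 names 9 (2.08%) were lower.

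Of 16 tested names reported to target App or Bace1 transcripts, 2 were higher and 0 lower, where 22 of all 433 names (5.08%) were higher and 9 (2.08%) lower. miR-29b-3p, of a family that rises as the brain matures, had 2594, 2759 and 2717 CPM at 9 months, against 1923, 2224 and 2092 CPM at 3 months (log2 fold change 0.37, SE 0.10, adjusted p = 0.0220). miR-29a-3p and miR-29c-3p share its seed and were also higher in every 9-month library, with log2 fold changes of 0.26 and 0.21 and an adjusted p of 0.185 each, short of the threshold. The 5p names miR-29b-2-5p and miR-29c-5p had log2 fold changes of -0.09 and -0.01 with overlapping libraries. miR-29b-3p passed in 2 of 6 fits with 1 library left out (highest adjusted p = 0.124, without the 3-month replicate 1) and lost its call under upper quartile scaling and without the filter on low counts. miR-101a-3p had 19.1, 24.5 and 20.6 CPM at 9 months, against 12, 8.83 and 11.5 CPM at 3 months (log2 fold change 1.00, SE 0.24, adjusted p = 0.0125), and passed in 4 of 6 (highest adjusted p = 0.0983, without the 3-month replicate 2). Its relative miR-101b-3p, which shares most of its bases and is far more abundant in these counts, had 1206, 1482 and 1365 CPM at 9 months, against 1090.1, 1222 and 1308 CPM at 3 months (log2 fold change 0.16, SE 0.11, adjusted p = 0.448), with overlapping libraries.

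The shares over all 433 names were 5.08% higher and 2.08% lower. Of the panel often studied in Alzheimer disease, 2 of 13 tested members were higher (miR-142a-5p and miR-155-5p) and 1 was lower (miR-212-3p). The other 10 did not pass, among them miR-34a-5p, a target of p53, at 148, 235 and 123 CPM at 9 months, against 234, 162 and 237 CPM at 3 months (log2 fold change -0.32, SE 0.39, adjusted p = 0.742). The same held for miR-107-3p (log2 fold change 0.10, SE 0.11, adjusted p = 0.740) and for miR-206-3p, best known from muscle (log2 fold change 0.46, SE 0.60, adjusted p = 0.755). miR-488-3p, from an intron of the neuronal gene Astn1, was the 1 neuron-enriched name of 23 that passed, where 31 of all 433 names (7.16%) passed. It had 1935, 1694 and 2019.6 CPM at 9 months, against 1413, 1459 and 1421 CPM at 3 months (log2 fold change 0.40, SE 0.10, adjusted p = 0.0141). It passed in 1 of 6 fits with 1 library left out (highest adjusted p = 0.108, without the 9-month replicate 3). The 5 most abundant names, miR-124-3p, miR-26a-5p, miR-99a-5p, miR-125b-5p and miR-9-5p, had log2 fold changes between -0.15 and 0.16, overlapping libraries and an adjusted p of 0.484 or above.

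**Figure D3:**
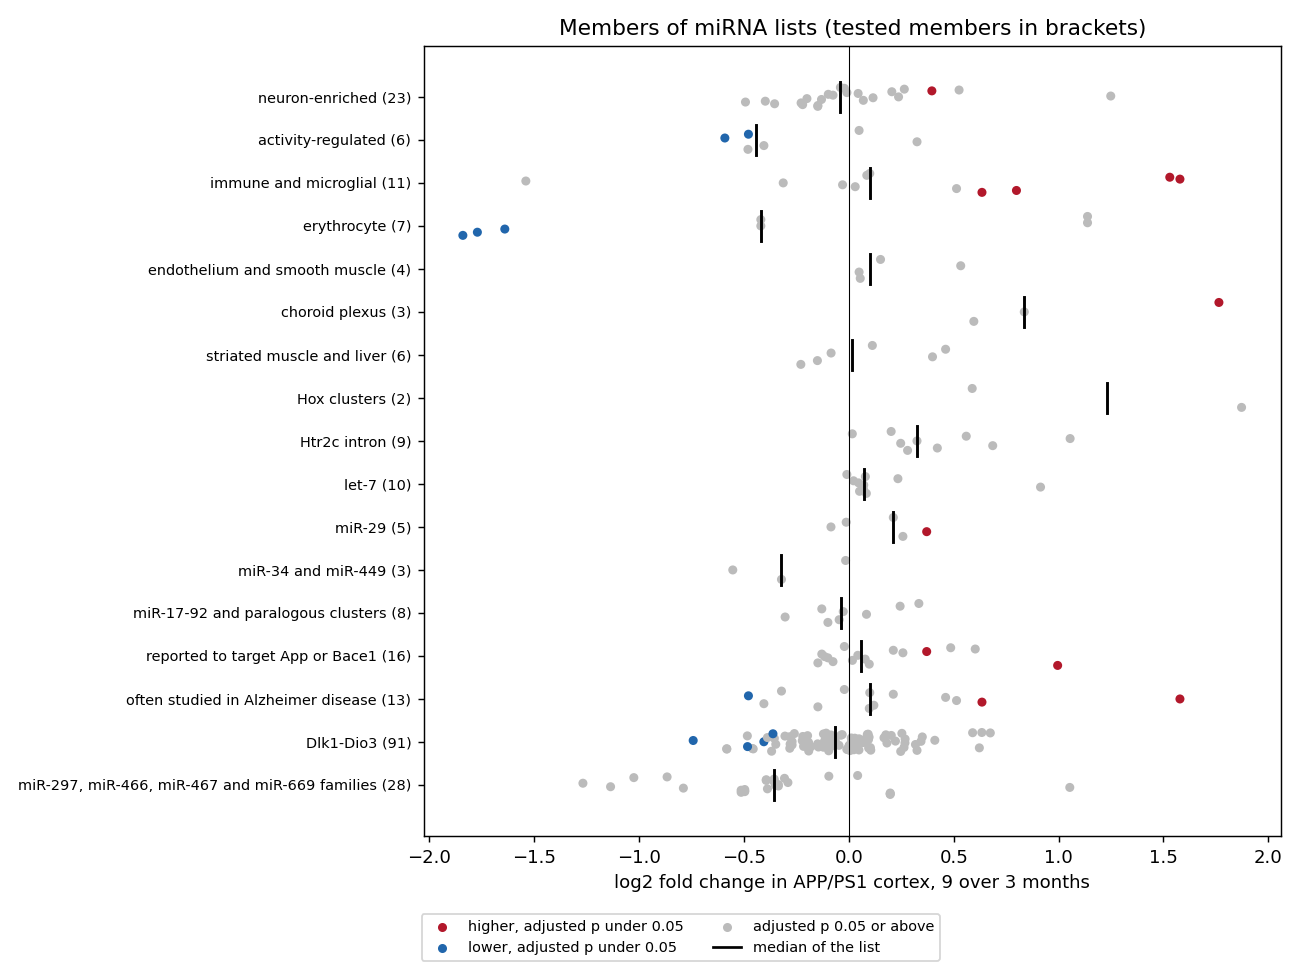
Log2 fold change in APP/PS1 cortex, 9 over 3 months, for the tested members of each miRNA list, with the number tested in brackets; red and blue points passed higher and lower, grey ones did not pass, and the black bar is the median of the list. The median is near 0 in most lists. The 3 erythrocyte names that passed lie furthest left, at -1.84 to -1.64. The 4 immune names that passed lie at 0.64 to 1.58. Grey names of other lists lie as far right, up to 1.87 in the Hox list and 1.25 in the neuron-enriched list. The immune list also holds a grey name at -1.54.

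Some of the other higher names are known from tissues other than cortex. miR-211-5p, from an intron of Trpm1, shares its seed with miR-204-5p, the leading miRNA of choroid plexus epithelium. It had 18.1, 10.9 and 8.95 CPM at 9 months, against 2.82, 5.09 and 3.02 CPM at 3 months (log2 fold change 1.76, SE 0.37, adjusted p = 0.00450), with no overlap, and passed in all 6 fits with 1 library left out. miR-204-5p had 452, 315 and 358 CPM at 9 months, against 224, 289 and 230.2 CPM at 3 months, also with no overlap, and did not pass (log2 fold change 0.60, SE 0.26, adjusted p = 0.202). The summed level of the choroid plexus list was 471, 328 and 370 CPM at 9 months, against 229, 296 and 234 CPM at 3 months. Of its 3 tested members 1 passed, where 31 of all 433 names (7.16%) did. miR-10a-5p, from a Hox cluster and so a marker of hindbrain and spinal cord rather than cortex, had 324, 282 and 163 CPM at 9 months, against 80.7, 61.2 and 67.9 CPM at 3 months, and did not pass (adjusted p = 0.134). The other tested Hox name had a log2 fold change of 0.59 and did not pass. The Hox list summed to 534, 427 and 268 CPM at 9 months, against 227, 132 and 155 CPM at 3 months. In WT cortex it summed to 205 to 293 CPM at 9 months and 122 to 472 CPM at 3 months. Whether dissection moved these values was not tested.

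Other changes depended on a single 9-month library. miR-215-5p, of the intestine and kidney family of miR-192, had 334, 5.95 and 5.47 CPM at 9 months, against 2.82, 2.25 and 2.01 CPM at 3 months (log2 fold change 5.59, SE 1.10, adjusted p = 0.00376), and without the 9-month replicate 1 its log2 fold change was 1.25 with an adjusted p of 0.213. The same library held the highest values of its seed relative miR-192-5p, at 1663, 828 and 726 CPM at 9 months, against 767, 755 and 856 CPM at 3 months, and of miR-194-5p, its neighbour in the cluster, at 497, 282 and 253 CPM at 9 months, against 279, 256 and 302 CPM at 3 months. miR-199a-5p, a miRNA of fibroblasts and other mesenchymal cells, had 304, 629.5 and 247 CPM at 9 months, against 236, 184 and 183 CPM at 3 months (log2 fold change 0.97, SE 0.26, adjusted p = 0.0216). miR-199a-3p had 231, 482 and 215 CPM at 9 months, against 204, 156 and 156 CPM at 3 months (log2 fold change 0.85, SE 0.22, adjusted p = 0.0206). Without the 9-month replicate 2 these were 0.45 (adjusted p = 0.256) and 0.37 (adjusted p = 0.253), and that is the library which was also high for miR-223-3p. Both passed in 3 of 6 fits. Neither miR-199 arm nor miR-215-5p passed in a fit of the 6 libraries alone.

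miR-152-3p, from an intron of Copz2, had 745, 876 and 697 CPM at 9 months, against 531, 511 and 555 CPM at 3 months (log2 fold change 0.54, SE 0.11, adjusted p = 0.00413), and passed in all 6. Its seed relatives miR-148a-3p and miR-148b-3p did not pass, with log2 fold changes of 0.16 and -0.04 and overlapping libraries. miR-873a-5p, from an intron of the neuronal gene Lingo2, had 8.38, 11.4 and 9.20 CPM at 9 months, against 5.82, 5.69 and 6.04 CPM at 3 months (log2 fold change 0.72, SE 0.20, adjusted p = 0.0233), passing in 1 of 6 (highest adjusted p = 0.137, without the 9-month replicate 2). miR-203-3p, best known from epidermis, had 267, 240.4 and 225 CPM at 9 months, against 181, 174 and 171 CPM at 3 months (log2 fold change 0.48, SE 0.14, adjusted p = 0.0332), passing in 0 of 6 (highest adjusted p = 0.209, without the 9-month replicate 1).

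Among the names that passed, the largest increases apart from miR-215-5p belonged to 6 that were higher still at 6 months. miR-690, from an intron of Fgf12 at chr16:28599935-28600043 (minus strand), had 177, 62.5 and 91 CPM at 9 months, against 28.9, 20.5 and 8.06 CPM at 3 months (log2 fold change 2.51, SE 0.42, adjusted p = 0.00242). Its 9-month libraries all lay above its 3-month libraries, and it passed in all 6 fits with 1 library left out. The predicted miRNA, miR-3470a, miR-3470b and miR-1957a had log2 fold changes of 2.30, 2.10, 2.21 and 1.80, with adjusted p = 0.00242, 0.00242, 0.00413 and 0.0178. miR-6481 had 50 counts over the 9-month libraries and 0 over the 3-month libraries. It was at least 23.8-fold higher when the 3-month group is set to 3 counts, the limit that a count of 0 allows over the whole group. It was tested only in fits that held the 6-month libraries, which were 7 of the 10 other settings, so its place among the tested names rests on 6 months. miR-1957a alone of the 6 lost its call when 1 library was left out, passing in 2 of 6 (highest adjusted p = 0.10, without the 3-month replicate 2).

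In APP/PS1 cortex the 6 names summed to 58.4, 42.7 and 24.2 CPM at 3 months, to 355, 561 and 711 CPM at 6 months and to 346, 136 and 178 CPM at 9 months. In WT cortex they summed to 40.8 to 47.7 CPM at 3 months, to 908 to 1251 CPM at 6 months and to 31.3 to 61.9 CPM at 9 months. The sum of the 6 names was thus highest at 6 months in both genotypes, and each 9-month APP/PS1 library lay above each 3-month one. Of the 22 higher names, the 6-month APP/PS1 mean was above both ages for 6, between them for 15 and below both for 1; of the 9 lower names it was above both for 2, between for 4 and below for 3. The labels name no batch, so whether ages were prepared apart cannot be told from the sources used here.

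**Figure D4:**
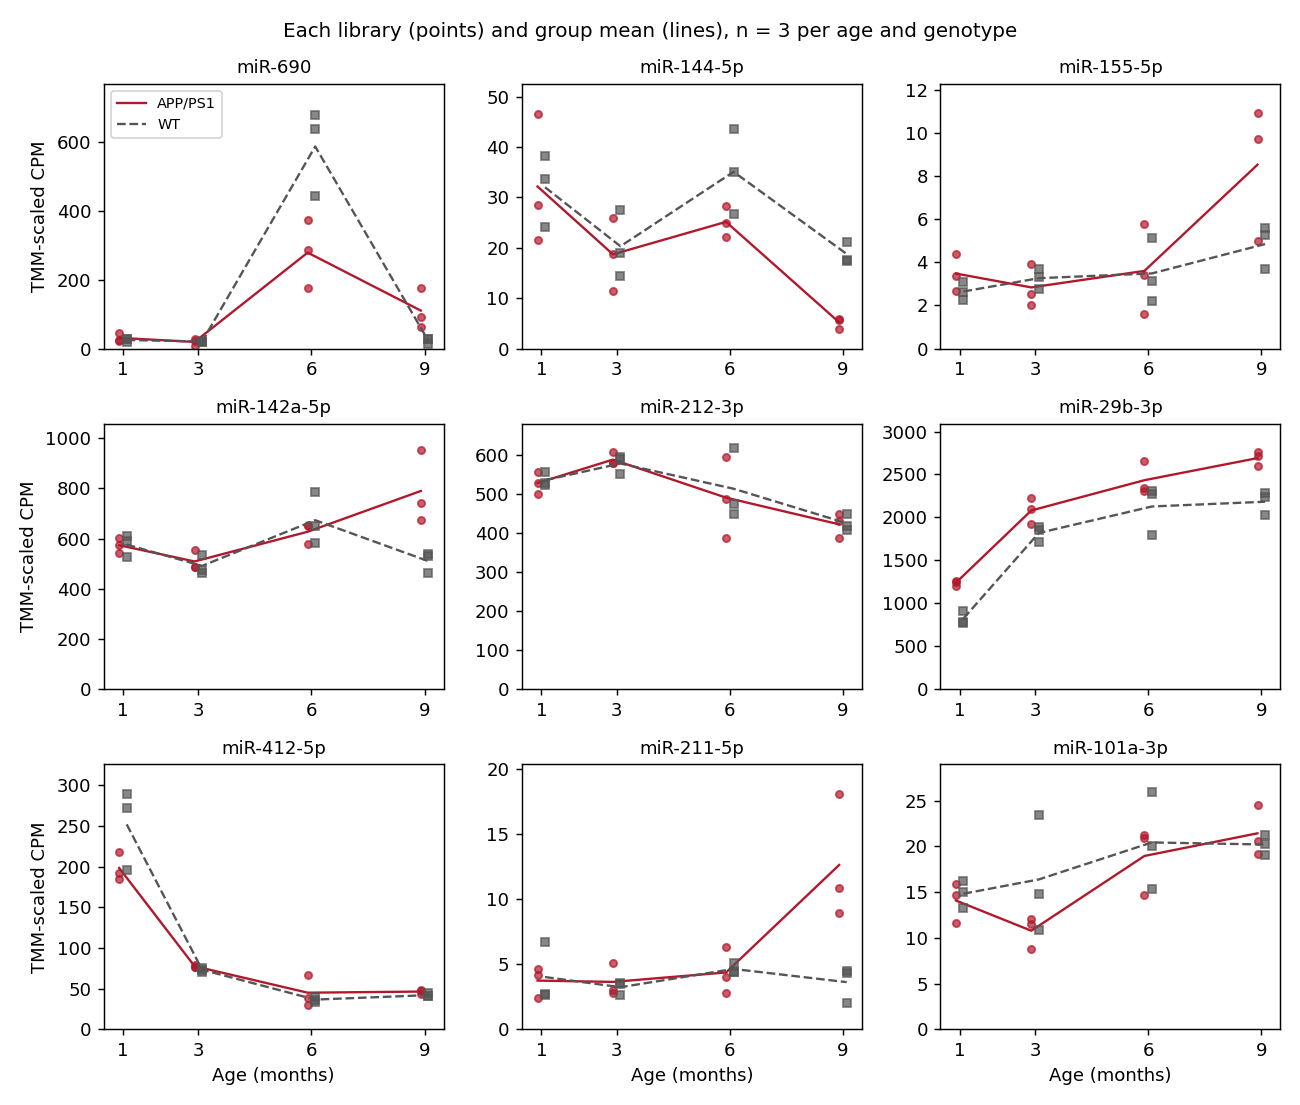
TMM-scaled CPM of 9 miRNAs in each library against age in months, with red circles and solid mean lines for APP/PS1 and grey squares and dashed mean lines for WT (n = 3 per age and genotype). miR-690 peaks at 6 months in both genotypes, the mean lines of miR-144-5p, miR-155-5p, miR-142a-5p and miR-211-5p part at 9 months, and miR-212-3p and miR-412-5p run close together in both. By edgeR's test of the APP/PS1 change minus the WT change, 0 of 433 names passed.

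Set beside the same ages in WT mice, which share no library with the APP/PS1 comparison, 0 of 433 names passed at 9 against 3 months by edgeR, with 41 (9.47%) at an unadjusted p under 0.05, 2 by DESeq2 and 1 by limma. The smallest adjusted p by edgeR was 0.0533, for miR-101b-3p, which was the name limma gave, and DESeq2 gave miR-412-5p as well. Libraries of the ages did not overlap for 60 names (13.9%) in WT. The question whether the age change differs between genotypes was tested directly as the APP/PS1 change minus the WT change. By edgeR 0 names passed, with a smallest adjusted p of 0.165 and 30 names (6.93%) at an unadjusted p under 0.05; limma gave 0 and DESeq2 gave 5, namely miR-690, the predicted miRNA that follows it, miR-199a-5p, miR-144-5p and miR-6481. Without the 9-month APP/PS1 replicate 3 edgeR gave 8, and without the filter on low counts 14. A change that passed in APP/PS1 and not in WT is not shown to differ between them by edgeR's test on all libraries.

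The difference itself, on the log2 scale, was estimated with these values. For miR-144-5p it was -1.72 (SE 0.46, adjusted p = 0.165), for miR-451a -1.48 (SE 0.47, adjusted p = 0.201) and for miR-142a-5p 0.58 (SE 0.18, adjusted p = 0.201). WT cortex had 539, 529.6 and 461 CPM of miR-142a-5p at 9 months and 475, 534 and 464 CPM at 3 months, with overlapping libraries. It had 283, 326 and 274 CPM of miR-451a at 9 months and 285, 408 and 297 CPM at 3 months, again with overlap. For other names the changes were close in size in both genotypes: miR-412-5p had a log2 fold change of -0.74 in APP/PS1 and -0.80 in WT, miR-488-3p 0.40 and 0.33, and miR-203-3p 0.48 and 0.40. Of the 31, 24 had the same sign in WT, against 284 of all 433 names (65.6%), and across the 433 names the changes in the genotypes had a Pearson r of 0.13. Since the 31 were chosen for their change in APP/PS1, their smaller changes in WT carry no test.

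**Figure D5:**
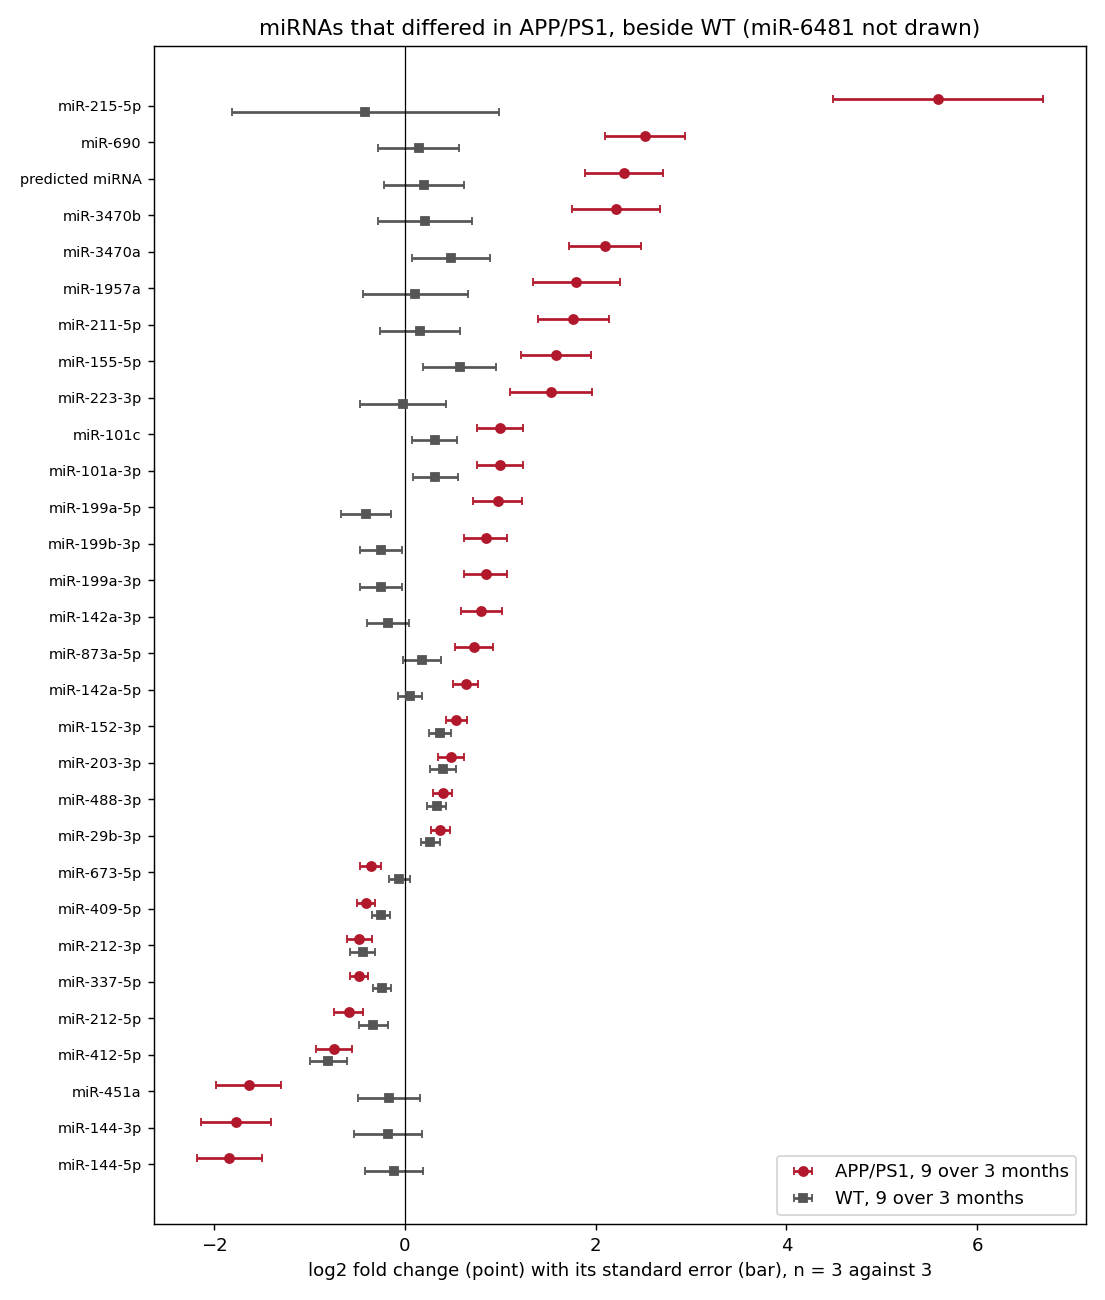
Log2 fold change, 9 over 3 months, in APP/PS1 (red) and WT (grey) cortex for the names that passed in APP/PS1, with bars of 1 SE; miR-6481 is left out because its 3-month counts were 0. The miR-144 and miR-451a names and miR-690 stand away from their WT values, and miR-412-5p, miR-212-3p and miR-488-3p lie close to theirs. By edgeR's test of the APP/PS1 change minus the WT change, 0 of 433 names passed.

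Across the 358 names with a RefSeq sequence, the log2 fold change had a Pearson r of -0.03 with GC content and of -0.09 with length, given as a description over miRNAs of the same libraries. By position, 5 of the 9 lower names came from chromosome 11 (the miR-144 and miR-451a cluster and the miR-212 hairpin) and 4 from chromosome 12. Among the 358 names with a RefSeq sequence, chromosome 11 held 34, of which 3 were higher and 5 lower. Chromosome 12 held 98 of them, the most of any chromosome, of which 1 was higher and 4 lower. The share lower over all 433 names was 2.08%. For 125 hairpins with both arms tested and in RefSeq, the arms had the same sign in 82. Of the 11 such hairpins with an arm that passed, both arms passed in 4 (miR-142a, miR-144, miR-199a and miR-212).

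Over all 433 names 31 passed (7.16%), a share at which a list of 3 to 10 names often holds none. Several lists held no name that passed. These were the let-7 family (0 of 10 tested), the miR-17-92 and paralogous clusters (0 of 8), the miR-34 and miR-449 family (0 of 3), the endothelium and smooth muscle list (0 of 4), the striated muscle and liver list (0 of 6) and the Htr2c intron cluster (0 of 9, all above 0 in log2 fold change). The miR-297, miR-466, miR-467 and miR-669 families, from repeat-rich hairpins, had 0 of 28 names passing (19 distinct) and a median log2 fold change of -0.36, with 23 below 0. The 1 tested oligodendrocyte name, miR-338-3p, had 7.33, 6.20 and 5.97 CPM at 9 months, against 3.57, 3.44 and 3.63 CPM at 3 months (log2 fold change 0.87, SE 0.28, adjusted p = 0.0755), with a WT log2 fold change of 0.88.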

How the data were processed

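The labels give 6 APP/PS1 libraries at 9 and 3 months, with 3 mice per age. Per the labels' protocols, RNA was extracted with Trizol, made into TruSeq small RNA libraries and read single-end on a HiSeq 2500; adapters were trimmed with cutadapt 1.14 to 17 to 35 bases, reads under quality 20 were removed with Trimmomatic 0.36, other RNA classes and repeats were removed with Blast 2.6.0, and miRNAs were named from miRBase 21.0 or predicted with miRDeep2 2.0.0.8. Blast removal of repeats can lower names from repeat-rich hairpins. Neither counting tool nor genome build nor the handling of multiply matching reads is given in the sources used here. Per mature miRNA name the authors deposited raw counts, 1927 names by 24 libraries, of which 802 had 0 counts throughout.

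Names were filtered by edgeR 4.0.16 (minimum count 10, minimum total 15 over 8 groups), which left 433, scaled with TMM and fitted by quasi-likelihood in R 4.3.3 over all 24 libraries with 1 mean per group (16 residual and 4.64 prior degrees of freedom, common biological coefficient of variation 18.6%). P-values were adjusted by Benjamini-Hochberg over the 433 names at 0.05 and measure the spread between mice. A standard error is the size of the log2 fold change over the square root of its F. Sex was not modelled. Replicates differed beyond counting noise (chi-square per degree of freedom 64.3 to 115), and no 2 libraries were identical; this does not show that they came from separate mice, which rests on the series design. Alternatives were limma 3.58.1, DESeq2 1.42.0, other scalings, no filter, identical names once, other sets of libraries and each library left out.

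The members and the miRNA lists were chosen with earlier results of these data known. Names were given by this rule: the 12 higher and 12 lower with the smallest p among those that passed without overlap, up to 4 passing members per list, members of the miR-29, erythrocyte, immune and Alzheimer lists whether they passed or not, the 5 most abundant, and relatives by seed or cluster. Named outside it after their values were seen were miR-199a-5p, miR-199a-3p, miR-199b-3p, miR-1957a, miR-873a-5p, miR-203-3p, miR-10a-5p, miR-101b-3p, miR-134-5p, miR-485-5p, miR-338-3p, miR-21a-5p and miR-219a-5p. Gene positions are from GENCODE M21 (GRCm38).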

Additional observations from a re-analysis of the deposited data

How the results depend on the processing

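No value changed sign under any alternative tried, for the 31 names that passed in APP/PS1 at 9 against 3 months. Of the 31, 13 passed in all 6 fits with 1 library left out, 17 in every other setting that could be fitted, and 11 in both. Each of these counts includes miR-6481, which was not tested where the 6-month libraries were left out. miR-203-3p, miR-673-5p and miR-873a-5p passed in 6 of these 10 other settings, and miR-488-3p, miR-142a-3p and miR-223-3p in 7. The count of 31 was 33 with relative log expression scaling, 27 with upper quartile scaling, 43 without the filter on low counts, 34 with DESeq2, 29 with limma, 35 with identical names once, 34 without the 6-month libraries and 22 with the 6 compared libraries alone. Of the 22 names with the 6 compared libraries alone, 13 were higher and 18 were among the 31. Without the filter 25 of the 43 names were among the 31, and with DESeq2 29 of the 34. DESeq2 and identical names once each gave 14 lower. An alternative chosen after seeing the data, the 12 libraries of 3- and 9-month mice, gave 30. With 1 library left out the count was 16 to 26, with 10 to 19 higher and 5 to 10 lower.

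The APP/PS1 change minus the WT change, 0 in the reported fit, was 14 without the filter on low counts (11 higher, 3 lower), 5 with DESeq2 (4 higher, 1 lower) and 0 to 8 with 1 library left out (0 to 6 higher, 0 to 2 lower). The WT change, also 0, was 3 without the filter (2 higher, 1 lower), 2 with DESeq2 (1 higher, 1 lower), 1 with limma (higher), 1 with the compared libraries alone (lower) and 3 without the 6-month libraries (1 higher, 2 lower). The cause of these changes was not tested.

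A replicate block, with the replicate number as a term, gave 29 names (21 higher, 8 lower). The deviations of same-numbered 9- and 3-month APP/PS1 libraries correlated at 0.09, -0.30 and 0.05, and those of differently numbered ones at -0.34 to 0.30. Same-numbered libraries were thus not more alike than others. With 3 libraries per age these values cannot exclude a pairing. Depth limits what the 188 names under 20 CPM can show, since the deepest 9-month APP/PS1 library held 4382596 counts.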
